A study of Mus musculus with 16 samples.

Results

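The 6 genes described here encode regulators of the primitive endoderm, the extraembryonic layer that separates from the epiblast in the blastocyst. They are the GATA factors Gata6 and Gata4, the SRY-box factors Sox7 and Sox17, the receptor Pdgfra and the forkhead factor Foxa2. Every probe set that the platform annotation assigns to one of these genes alone was taken. This gave 10 probe sets for 6 of the 12393 genes with such a probe set on the array. The genes were chosen by name, for their role in this lineage.

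The arrays compared mouse embryonic stem (ES) cells of 2 genotypes, both of mixed strain (129/C56Bl/6 in the labels). WT cells carried both intact copies of the gene under study, and KO cells were homozygous for its inactivated allele, in every cell and without a tissue-specific driver. Each line was derived from 1 blastocyst after heterozygous mice were crossed, and the sources used here do not say how many lines of each genotype were used. Differences between genotypes may therefore also be differences between lines, and the arrays cannot tell these apart. For each genotype, 3 arrays held RNA of growing cells, 3 held RNA taken 2 h after gamma irradiation with 8 Gy, and 2 held RNA taken 24 h after irradiation, at a dose not given in the sources used here. No group was left unirradiated for a matched time. All 6 groups grew with LIF on mitomycin-treated fibroblast feeders, which were depleted by attachment to gelatin before lysis. Replicates are labelled as numbered experiments, with no word on separate cultures, so the p-values rest on the spread among these samples alone, and that spread may be technical.

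In the blastocyst, Gata6 acts early in the cells that become primitive endoderm and opposes Nanog, the factor of the epiblast. Signalling by fibroblast growth factor through the ERK kinases favours the Gata6 state, and Sox17, Gata4 and Sox7 follow, with Pdgfra as the surface receptor that marks the lineage. Forced expression of Gata6 or Gata4 turns mouse ES cells into extraembryonic endoderm, and ES cultures contain a few cells that express these genes spontaneously. In RNA from a bulk culture, a larger number of such cells and more RNA per cell cannot be told apart.

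The ES cell label was borne out by abundant Pou5f1, at an intensity of 1339 ± 76.2 (SD, n = 3) in growing WT cells and 1379 ± 142 (SD, n = 3) in growing KO cells, and by Sox2, at 757 ± 143 and 741 ± 76.5. Intensities are in scaled units, with a trimmed mean of 100 on every array and array medians from 26.7 to 37.3. The 6 genes were dim by this measure. A probe set was tested where at least 1 group mean exceeded the 30th percentile of all values, an intensity of 11.9. The 18S control stood out on WT growing replicate 1 and KO 2 h replicate 2 (976 and 2942, against at most 163 elsewhere). The arrays were hybridised in 4 runs, and run 4, on a second day, comprised the replicate 3 arrays of 4 groups.

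The question asked here was whether the regulators differed between KO and WT cells, in each state and over the 3 states. Differences are in log2(intensity + 16) ± SE from limma, a scale that understates the change of dim genes, and p-values are adjusted by Benjamini-Hochberg over all 17736 probe sets tested. Averaged over the 3 states, Gata6 (both probe sets), Gata4 (1 of 2) and Sox7 were higher in KO cells, by 0.42 to 0.59. Of these, Sox7 and the Gata6 probe set 1425463_at were tested only because KO groups exceeded the test level, so their passing is no separate support. Pdgfra, Sox17 and Foxa2 had positive differences that did not pass the threshold of 0.05. In the single states limma called 0 of their 8 tested probe sets, although 5 of the 2 h values and 3 of the 24 h values had an unadjusted p under 0.05 (0 in growing cells). Over all probe sets tested, the shares at an unadjusted p under 0.05 were 14.9% at 2 h, 9.59% at 24 h and 10.6% in growing cells. Over all probe sets tested, 2.01% were called higher in KO for the mean of the states and 4.13% in either direction. Single states had fewer calls in either direction: growing cells 0.248%, the 2 h arrays 0.395% and the 24 h arrays 0.062%.

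**Figure D1:**
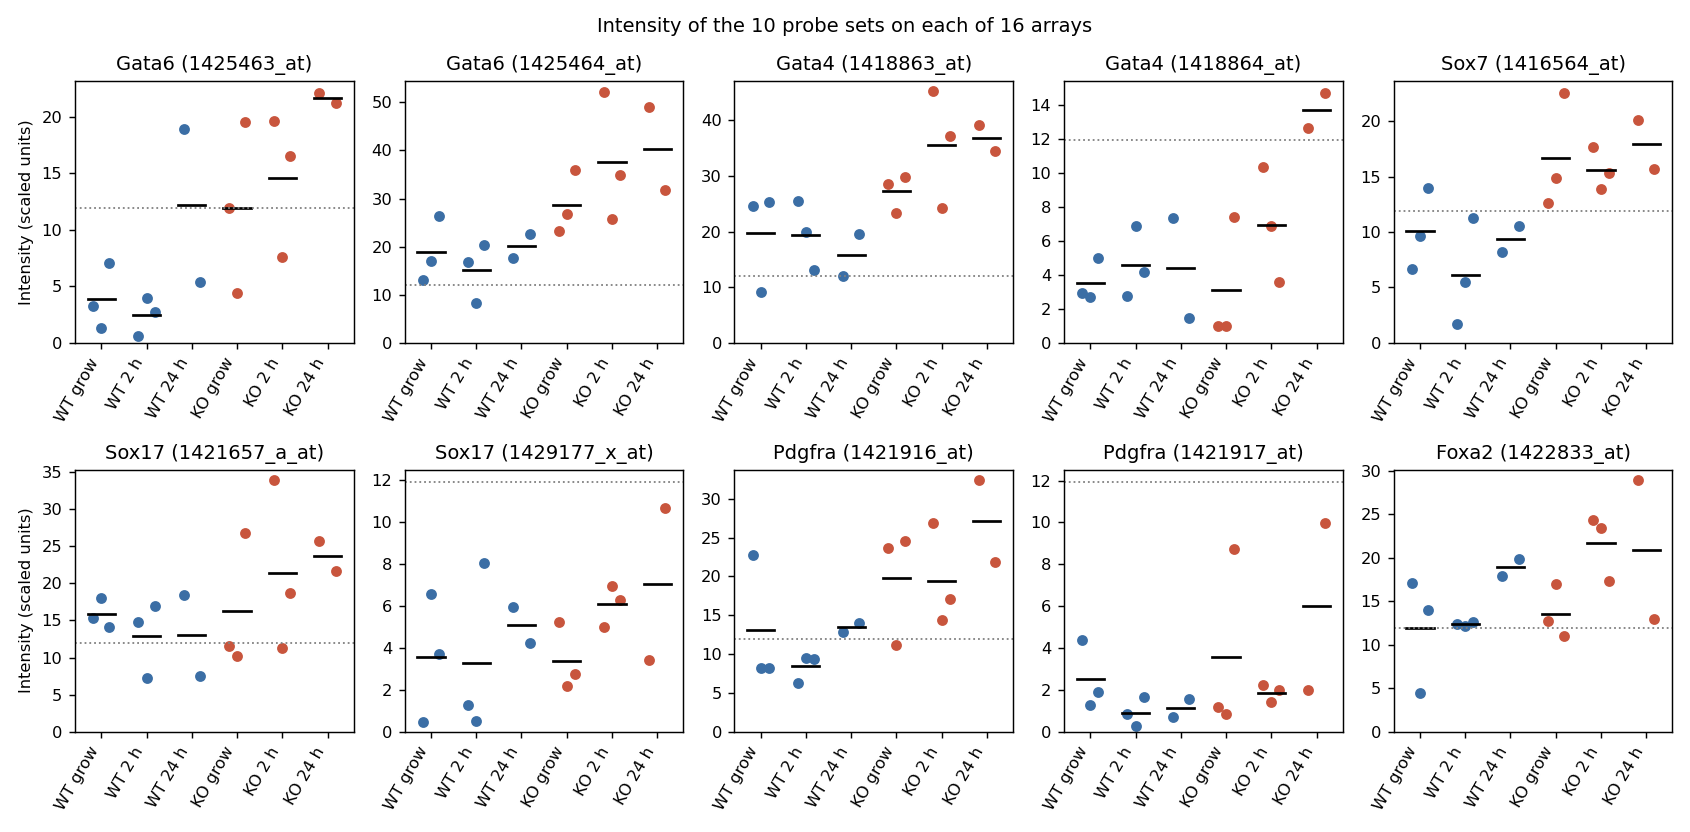
Intensity (scaled units, linear axis from 0) of each of the 10 probe sets on the 16 arrays, by group. Points are arrays in the order of their replicate numbers, blue for WT and red for KO, black bars are group means, and the dotted line is the intensity of 11.9 that a group mean had to exceed for testing. The probe sets 1425464_at of Gata6, 1418863_at of Gata4 and 1416564_at of Sox7 each have 6 of 8 KO points above the highest WT point. The other probe sets have 1 to 5. Sox7 was tested only through KO groups, and the share of all tested probe sets with 6 such points was not counted.

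Gata6, on chromosome 18, encodes the zinc finger factor that starts the programme. Its brighter probe set, 1425464_at, exceeded the test level in all 6 groups. Growing WT arrays read 13.1, 17.1 and 26.4, and growing KO arrays 23.2, 26.8 and 36.0. At 2 h the WT arrays read 16.8, 8.34 and 20.3 and the KO arrays 52.2, 25.8 and 34.8. At 24 h the WT arrays read 17.6 and 22.7 and the KO arrays 49.0 and 31.7. The genotypes overlapped in growing cells, where the brightest WT array lay above 1 KO array, and did not overlap at 2 h or at 24 h. Over all states the KO arrays averaged 34.9 ± 10.7 and the WT arrays 17.8 ± 5.58 (SD, n = 8 each), a ratio of 1.96. The difference averaged over states was 0.59 ± 0.13 (adjusted p = 0.0178). The growing cells alone gave 0.36 ± 0.22 (adjusted p = 0.568). The 2 h arrays gave 0.77 ± 0.22 (adjusted p = 0.116), and the 24 h arrays 0.63 ± 0.26 (adjusted p = 0.467). The call for the mean of the states held in 14 of the 16 fits that left out 1 array. It was lost without WT 24 h replicate 1 (adjusted p = 0.0577) and without KO 24 h replicate 1 (adjusted p = 0.0559).

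The second probe set of Gata6, 1425463_at, was dimmer and exceeded the test level only in the irradiated KO groups. WT arrays read between 0.611 and 7.03 apart from 1 array at 24 h, which read 18.9. KO arrays of growing cells read 12.0, 4.39 and 19.5. The KO arrays at 2 h read 19.6, 7.60 and 16.6, and those at 24 h read 22.1 and 21.3. Again the genotypes overlapped in growing cells and were separate at 2 h and at 24 h. Averaged over states, the difference was 0.55 ± 0.14 (adjusted p = 0.0370). This call was lost in 12 of the 16 fits without 1 array, with differences from 0.43 to 0.66 and adjusted p-values up to 0.116. It was kept without WT growing replicate 3, WT 24 h replicate 1, KO growing replicate 2 or KO 2 h replicate 2.

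Gata4, on chromosome 14, encodes the related GATA factor that acts after Gata6 in this lineage. The probe set 1418863_at exceeded the test level in all 6 groups. Growing WT arrays read 24.7, 9.20 and 25.3 and growing KO arrays 28.5, 23.3 and 29.8. At 2 h the values were 25.4, 19.9 and 13.1 in WT against 45.2, 24.2 and 37.1 in KO. At 24 h they were 11.9 and 19.5 in WT against 39.2 and 34.5 in KO. The ranges overlapped in growing cells and at 2 h, each time through 1 KO array, and were apart at 24 h. The difference averaged over states was 0.53 ± 0.13 (adjusted p = 0.0293), from 32.7 ± 7.63 in KO and 18.6 ± 6.48 in WT (SD, n = 8 each). Leaving out 1 array kept the size of the difference (0.45 to 0.59) but lost the call in 8 of 16 fits. In KO these were the fits without replicate 1 or 3 of the growing cells, replicate 1 or 3 at 2 h, or either replicate at 24 h. In WT they were the fits without replicate 3 at 2 h or replicate 1 at 24 h, all with adjusted p-values from 0.0522 to 0.10. Without a filter on dim probe sets the adjusted p was 0.0542.

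The other probe set of Gata4, 1418864_at, stayed near the bottom of the scale on most arrays. In WT it read between 1.47 and 7.33. In growing KO cells it read 0.985, 1.01 and 7.43, at 2 h 10.4, 6.85 and 3.59, and at 24 h 12.7 and 14.7. The KO arrays at 24 h, growing KO replicate 3 and KO 2 h replicate 1 lay above every WT array, and only the 24 h group exceeded the test level. Over the states the mean difference was 0.22 ± 0.12 (adjusted p = 0.333), and at 24 h it was 0.56 ± 0.23 (adjusted p = 0.464). The 2 probe sets of Gata4 therefore differ in whether they passed.

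Sox7, also on chromosome 14, encodes an SRY-box factor of the group that includes Sox17, expressed in primitive and parietal endoderm. Its single probe set, 1416564_at, exceeded the test level in the 3 KO groups and in no WT group. Growing WT arrays read 6.69, 9.64 and 13.9 and growing KO arrays 12.6, 14.9 and 22.6. At 2 h the WT arrays read 1.66, 5.49 and 11.3 and the KO arrays 17.6, 13.9 and 15.3. At 24 h the values were 8.21 and 10.6 in WT and 20.2 and 15.7 in KO. One WT array, growing replicate 3, lay above the lowest KO arrays, and at 2 h and 24 h the genotypes did not overlap. The means over 8 arrays were 16.6 ± 3.35 in KO and 8.44 ± 3.82 in WT (SD). Averaged over states, it differed by 0.42 ± 0.12 (adjusted p = 0.0479). It lay just inside the threshold, and leaving out any 1 array other than WT growing replicate 3 or WT 2 h replicate 3 lost the call (adjusted p from 0.0540 to 0.122, with the difference between 0.37 and 0.48 over all 16 fits). Because Sox7 entered the test through its KO groups, the alternative of selecting on the mean of all 16 arrays, chosen after seeing the data, was run. It kept Sox7 in the test and the call (adjusted p = 0.0462). That mean also includes the KO arrays, and no WT group exceeded the test level, so the kept call is no separate support.

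Sox17, on chromosome 1, encodes the SRY-box factor needed to keep primitive endoderm cells in their fate. The probe set 1421657_a_at read 15.3, 18.1 and 14.2 in growing WT cells and 11.6, 10.3 and 26.9 in growing KO cells. At 2 h the WT arrays read 14.8, 7.21 and 16.9 and the KO arrays 34.0, 11.3 and 18.7. At 24 h the WT arrays read 18.5 and 7.51 and the KO arrays 25.7 and 21.7. The genotypes were mixed in growing cells and at 2 h, and the KO arrays were higher at 24 h. The difference averaged over states was 0.27 ± 0.15 (95% interval −0.04 to 0.57, adjusted p = 0.349). In growing cells it was −0.02 ± 0.24, and its sign changed under other scalings. The other Sox17 probe set, 1429177_x_at, carries the suffix used for possible cross-hybridisation. It read between 0.439 and 10.7, below the test level in every group, and was not tested.

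Pdgfra, on chromosome 5, encodes the alpha receptor for platelet-derived growth factor. The probe set 1421916_at read 22.7, 8.23 and 8.25 in growing WT cells and 23.7, 11.1 and 24.6 in growing KO cells. At 2 h the WT arrays read 6.28, 9.49 and 9.41 and the KO arrays 26.9, 14.4 and 17.0. At 24 h the WT arrays read 12.9 and 14.0 and the KO arrays 32.4 and 21.9. KO arrays were higher without overlap at 2 h and at 24 h, while WT growing replicate 1, one of the arrays of high 18S signal, reached the KO range. For the mean of the states the difference was 0.46 ± 0.13 (95% interval 0.18 to 0.74, adjusted p = 0.0604). Of the 16 fits that left out 1 array, 14 did not pass, with differences from 0.40 to 0.54 over all 16. It passed in 2, without WT growing replicate 1 (adjusted p = 0.0244) and without KO growing replicate 2 (adjusted p = 0.0355). It also passed without both arrays of high 18S signal (0.57, adjusted p = 0.0232). The second probe set, 1421917_at, read between 0.264 and 9.99, below the test level in every group, and was not tested.

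Foxa2, on chromosome 2, encodes a forkhead factor of visceral and definitive endoderm. Its probe set, 1422833_at, read 17.2, 4.49 and 14.0 in growing WT cells and 12.8, 16.9 and 11.0 in growing KO cells. At 2 h the WT arrays read 12.4, 12.1 and 12.6 and the KO arrays 24.3, 23.4 and 17.3. At 24 h the WT arrays read 17.9 and 19.9 and the KO arrays 28.9 and 12.9. KO arrays lay above the WT arrays only at 2 h. The difference averaged over states was 0.19 ± 0.12 (95% interval −0.07 to 0.45, adjusted p = 0.453), with a 2 h value of 0.41 ± 0.20 (adjusted p = 0.349) and a 24 h value of 0.05 ± 0.24 (adjusted p = 0.969).

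The promoter table used here, from RefSeq on GRCm38.p6, held entries for Pdgfra and Foxa2 among the 6 genes. The 250 bases before each listed start are shown because, of the 6 genes, only these had an entry. Neither gene passed the threshold between genotypes for the mean of the states. The promoters of the other genes were not examined. The core letters GATAA (GATA factors), ACAAT (SRY-box factors) and TGTTT (forkhead factors) were searched on both strands, and TGTTT or its reverse complement is in capitals.
Pdgfra, chr5:75152001-75152250, + strand: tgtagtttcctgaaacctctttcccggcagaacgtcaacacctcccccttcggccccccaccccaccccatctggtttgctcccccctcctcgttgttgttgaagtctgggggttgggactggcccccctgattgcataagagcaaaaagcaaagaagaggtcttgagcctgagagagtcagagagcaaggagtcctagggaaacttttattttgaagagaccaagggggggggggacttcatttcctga
Foxa2, chr2:148046970-148047219, − strand: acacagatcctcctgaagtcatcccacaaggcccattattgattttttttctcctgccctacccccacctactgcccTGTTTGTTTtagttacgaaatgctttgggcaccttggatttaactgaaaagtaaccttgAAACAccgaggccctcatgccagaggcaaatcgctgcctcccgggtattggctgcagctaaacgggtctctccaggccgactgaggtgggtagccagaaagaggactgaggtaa
The Foxa2 window held 3 matches of TGTTT. A pair overlapping by 1 base began 173 and 169 bases before the start on the gene's strand, and a single match lay 114 bases before it on the opposite strand. The Pdgfra window held no match of TGTTT, and neither window held GATAA or ACAAT. Of 32817 promoter windows of this length, 46.4% held TGTTT, 27.7% ACAAT and 22.6% GATAA, so matches of these short words are common. A match is a match of letters and not a measured site.

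**Figure D2:**
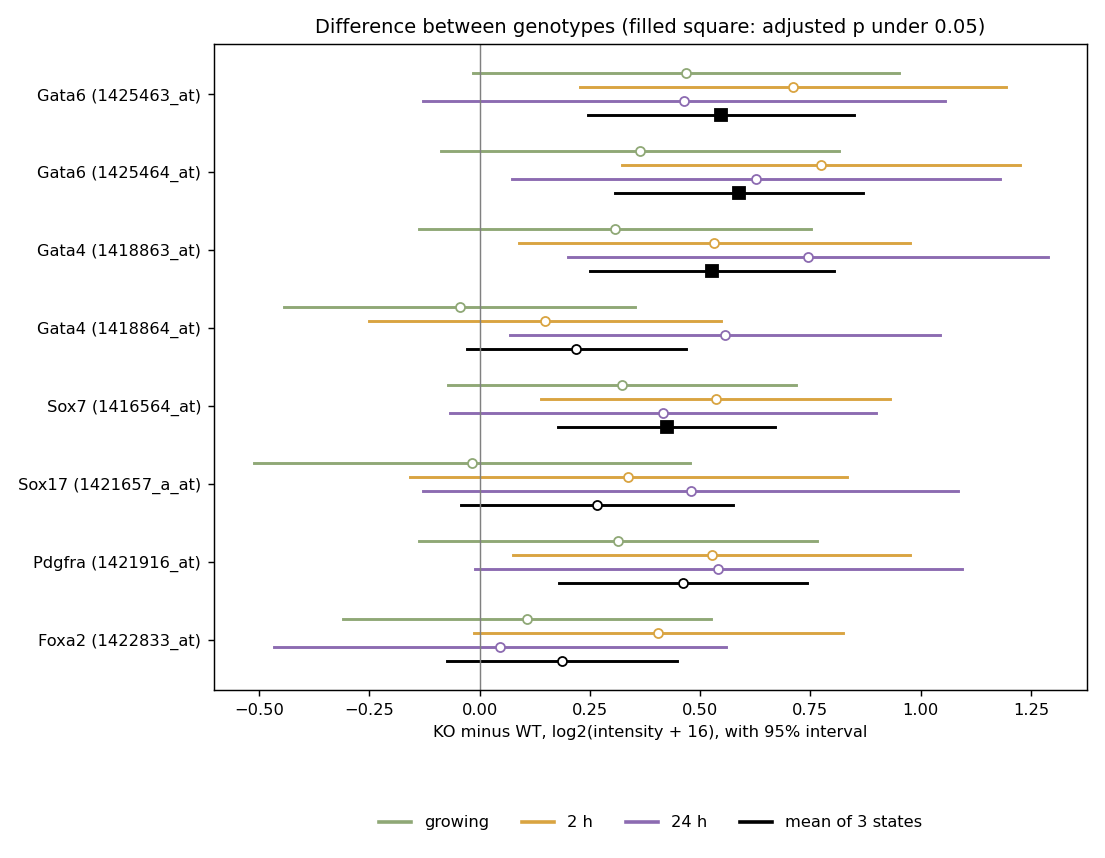
KO minus WT difference in log2(intensity + 16) for the 8 tested probe sets, in each state and averaged over the 3 states, with 95% intervals. Filled squares mark an adjusted p under 0.05: these are both Gata6 probe sets, Gata4 1418863_at and Sox7, in each case for the mean of the states.

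Most of the tested probe sets shared the direction of the difference over states, but not its size. In growing cells Gata4 1418864_at (−0.05) and Sox17 1421657_a_at (−0.02) were below 0. Foxa2 differed by 0.41 at 2 h and by 0.05 at 24 h. The KO mean was above the WT mean in all 3 states for both Gata6 probe sets, Gata4 1418863_at, Sox7, Pdgfra and Foxa2, which were 6 of 8, where 18.8% of all tested probe sets did so. No tested probe set of the 6 genes had KO arrays all above WT arrays in growing cells, 5 had at 2 h and 7 at 24 h. Over all tested probe sets these shares were 7.08%, 13.6% and 19.8%. Since 3 of the 8 were tested only because of KO groups, these counts describe the probe sets and are not offered as a test. None had every KO array above every WT array, which 0.316% of all tested probe sets did.

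The group order of the levels also had a common top. The KO 24 h group had the highest mean for every probe set of the 6 genes except Foxa2, whose KO 2 h group was highest. The share of all tested probe sets with KO 24 h highest was not counted, so this is a description. Over all tested probe sets, KO cells at 24 h differed from growing KO cells by a median of 0.11. Without overlap, 27.9% were higher at 24 h. The dimmer Gata4 probe set was tested only through the KO 24 h group, and the untested probe sets of Sox17 and Pdgfra were dim. For Gata6 1425464_at the order was KO at 24 h, 2 h and growing, then WT at 24 h, growing and 2 h, and the only neighbours without overlap were growing KO and WT at 24 h. For Pdgfra 1421916_at the 3 KO groups again came first, and the step without overlap was from KO at 2 h to WT at 24 h. For Sox7 and Gata4 1418863_at the KO groups led too, but every group overlapped its neighbour in the order. For Foxa2 the step lay elsewhere, between WT at 24 h and growing KO cells.

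Within single hybridisation runs, each difference rests on 1 KO and 1 WT array. Gata6 1425464_at differed by 0.43 (run 1) and 0.29 (run 4) in growing cells, by 1.49 (run 2) and 0.48 (run 4) at 2 h, and by 0.30 (run 3) at 24 h. Gata4 1418863_at differed by 0.13 and 0.15, by 0.77 and 0.87, and by 0.51 in the same pairs. Sox7 differed by 0.33 and 0.37, by 0.65 and 0.20, and by 0.25. These genes, the second Gata6 probe set and Pdgfra were higher in KO in each of these pairs, whereas Gata4 1418864_at, Sox17 and Foxa2 had pairs of both signs. Sox7 and the second Gata6 probe set were tested through KO groups alone. The share of all tested probe sets higher in every pair was not counted, so these signs are a description. With the run as a block, the difference averaged over states was 0.59 for Gata6 1425464_at (adjusted p = 0.0175) and 0.58 for Gata4 1418863_at (adjusted p = 0.0294). The same block gave 0.65 for 1425463_at (adjusted p = 0.00749), which was tested through KO groups alone. With this block Pdgfra passed at 0.54 (adjusted p = 0.0323), and Sox7 did not, at 0.38 (adjusted p = 0.0704).

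**Figure D3:**
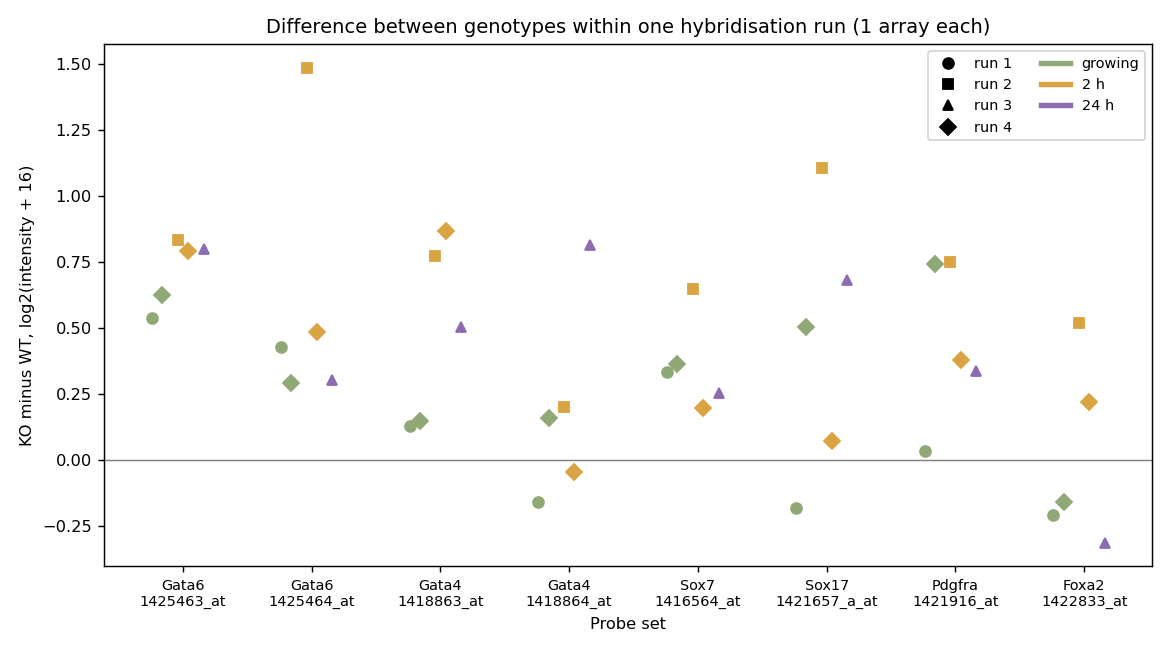
KO minus WT difference in log2(intensity + 16) between 1 KO and 1 WT array of the same hybridisation run, for the 8 tested probe sets. Symbols give the run and colours the state. All 5 points lie above 0 for Gata6 (both probe sets), Gata4 1418863_at, Sox7 and Pdgfra. The share of all tested probe sets with such points was not counted.

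The next comparisons asked whether irradiation changed the regulators within a genotype. In limma 0 of the 8 tested probe sets passed at 2 h or at 24 h in WT or in KO cells, and 1 of these 4 comparisons, KO at 24 h, had 1 at an unadjusted p under 0.05. Over all tested probe sets the share called was 0.147% in WT at 2 h, 0.107% in KO at 2 h, 8.61% in WT at 24 h and 8.02% in KO at 24 h. At an unadjusted p under 0.05 the shares were 8.1%, 7.98%, 22.8% and 25% in the same order. The largest difference belonged to Gata4 1418864_at in KO cells at 24 h, 0.65 ± 0.21 (adjusted p = 0.0671), which was tested only through that group. It passed without the filter on dim probe sets (adjusted p = 0.0387). Gata6 1425464_at differed by 0.33 ± 0.24 in KO cells at 24 h (95% interval −0.17 to 0.83) and by 0.07 ± 0.24 in WT cells (−0.44 to 0.57). The interval in KO cells reached past the 0.59 between genotypes for this probe set, and the interval in WT cells ended below it. Foxa2 differed by 0.35 ± 0.20 in KO cells at 2 h (adjusted p = 0.702) and by 0.35 ± 0.22 in WT cells at 24 h (adjusted p = 0.372). WT and KO changes at a given time were compared by the interaction term, and 0 of the 8 passed at either time, with 0 at an unadjusted p under 0.05. Over the array 0 of 17736 passed (0% called), with 1763 at 2 h and 851 at 24 h at an unadjusted p under 0.05.

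Likeness of pattern was measured by Pearson's r of log2(intensity + 16) over the 16 arrays, which share genotype and state, among 10252 genes. The gene most like Gata6 was Dab2 (r = 0.88), an endocytic adaptor of extraembryonic endoderm, followed by Rasa4, Anpep, Mcl1 and Thrb (0.86 to 0.85). Sox7 was most like Vat1, Laptm5 and Tcf20, with Gata6 at place 4 in its order (r = 0.84) and then Spen. Gata4 was most like Kdm2b (r = 0.84), then Tada2b, Itgax, Pzp and Ppp1r15b. Sox17 was most like Atp8b3 (r = 0.81), then Zfp33b, D17H6S56E-5, Rab43 and Pygm. Pdgfra was most like Dazl (r = 0.87), then Gabarapl2, Dcaf8, Cd74 and Norad. Foxa2 was most like Slc50a1 (r = 0.87), then Stc1, Krcc1, Vps16 and Cntrob. No other pair of the 6 genes stood among these first places. After the group means were subtracted, Gata6 still varied with Sox7 (r = 0.65) and Sox17 (r = 0.64) from array to array, while Gata4 and Sox7 did not (r = −0.07). The arrays differ in scaling and run as well, so these values describe the arrays.

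**Figure D4:**
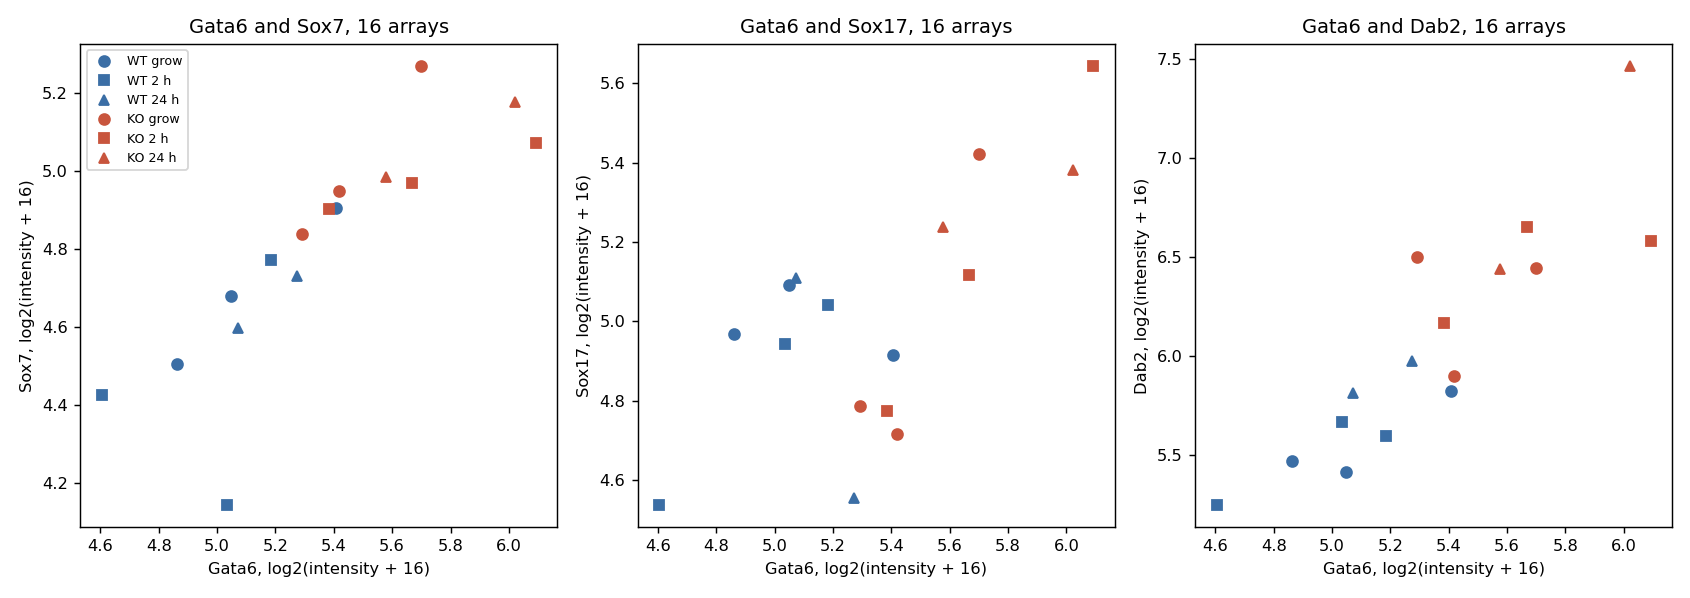
Gata6 (probe set 1425464_at) against Sox7, Sox17 and Dab2 on the 16 arrays, each axis in log2(intensity + 16). Blue is WT and red is KO, with circles for growing cells, squares for 2 h and triangles for 24 h. KO arrays lie mostly to the upper right for Sox7 and Dab2, and 3 KO arrays lie among the WT arrays for Sox17.

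The primitive endoderm list of other markers held 26 genes, of which 23 were tested. For the mean of the states 3 were higher in KO, none was lower and 20 did not pass. Over all 10252 genes tested, 2.11% were higher and 2.32% lower. An unadjusted p under 0.05 was found for 11 of the 23, where 18.8% of all tested probe sets had such a value. By this measure the pluripotency list below had 12 of 25 and the FGF and ERK list 9 of 22. Definitive endoderm and mesendoderm had 4 of 12, parietal endoderm 5 of 18 and visceral endoderm 1 of 9. Family relatives had 2 of 11 and fibroblast genes 0 of 30. The lists were drawn up with earlier results of these data known, so their counts are descriptions and not independent support. The list's median difference was 0.16, and that of all genes 0.01. The visceral endoderm list and the definitive endoderm and mesendoderm list each had a median of 0.13. Dab2 was higher by 0.91 ± 0.14 (adjusted p = 0.00125). Its WT arrays ranged from 22.0 to 46.9 and its KO arrays from 43.7 to 161, with the overlap coming from growing KO replicate 2 and WT at 24 h. The other Dab2 probe sets differed by 0.58 (adjusted p = 0.0146) and 0.24 (adjusted p = 0.540). Cubn, which encodes cubilin, an uptake receptor of visceral endoderm, was higher by 1.51 ± 0.12 (adjusted p = 8.41e-07) on a probe set with a cross-hybridisation suffix, with 42.0 ± 13.6 in growing KO cells and 1.94 ± 0.361 in growing WT cells (SD, n = 3 each), and by 1.10 (adjusted p = 0.000289) on a probe set without it. Srgn, a proteoglycan core protein of secretory granules, was higher by 1.86 ± 0.18 (adjusted p = 7.4e-06) and, like Sox7, was tested only through KO groups. Srgn and the Cubn probe set with the suffix also passed in each single state. The Cubn probe set without it passed in no single state, and its lowest adjusted p in limma was 0.0634, at 24 h. The brightest markers, which encode matrix proteins, did not pass: Sparc differed by 0.24 ± 0.11, Lamc1 by 0.25 ± 0.12 and Lamb1 by −0.31 ± 0.09 (adjusted p = 0.266, 0.280 and 0.0512).

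The lists of later endoderm showed few calls for the mean of the states, where 2.11% of all genes were higher and 2.32% lower. Of 18 parietal endoderm genes tested 0 passed in limma (5 at an unadjusted p under 0.05), with a median of −0.05, and its brightest genes were Vim, Sparc and Tfpi. Of 9 visceral endoderm genes tested 1 was lower, Lefty1, a Nodal antagonist also made by ES cells (−0.84 ± 0.19, adjusted p = 0.0151). Apoe and Apoa2, the brightest others, differed by 0.01 ± 0.11 and 0.15 ± 0.10 and did not pass. Of 12 genes of definitive endoderm and mesendoderm 1 was higher, Mixl1, a homeobox factor of the primitive streak (0.44 ± 0.12, adjusted p = 0.0464). The brightest of that list, Bmp4, Hhex and Eomes, did not pass. At 2 h 0 genes of these lists passed. An unadjusted p under 0.05 was then found for 5 of 12 definitive, 5 of 9 visceral and 1 of 18 parietal endoderm genes. The share over all tested probe sets was 14.9%. The 2 h medians of these lists were 0.37, 0.26 and 0.03, with 0.17 for the primitive endoderm markers and 0.05 for all genes.

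In the pluripotency list, 25 genes were tested, and by their brightest probe sets 4 were lower in KO and 1 was higher. Over all genes 2.32% were lower and 2.11% higher. Nanog, which opposes Gata6 in the blastocyst, was lower in KO, with a difference of −0.47 ± 0.10 (adjusted p = 0.0139), at 557 ± 44.3 in growing KO and 753 ± 107 in growing WT cells (SD, n = 3 each). Klf2, a factor of naive pluripotency, differed by −0.48 ± 0.13 (adjusted p = 0.0403). Dppa3 and Tcl1, both abundant in naive ES cells, differed by −0.64 ± 0.14 (adjusted p = 0.0151) and −0.69 ± 0.11 (adjusted p = 0.00100). Tcl1 also passed in growing cells alone (−0.97 ± 0.17, adjusted p = 0.0177). Stat3, the effector of LIF, was higher by 0.34 ± 0.08 (adjusted p = 0.0235), while its other probe sets differed by 0.23 and −0.16 and did not pass. Klf4, another factor of naive pluripotency, did not pass on its brightest probe set (0.29, adjusted p = 0.218) but was higher in KO on its other one (0.48, adjusted p = 0.00602). Nr5a2 was lower on 1 of 3 probe sets, one with a cross-hybridisation suffix (−0.42, adjusted p = 0.0410), and not on its brightest. The 3 brightest genes, Dppa5a, Sall4 and Pou5f1, differed by −0.01 to 0.12 and did not pass.

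For FGF and ERK signalling, which acts upstream of Gata6, 22 genes were tested, and by their brightest probe sets 2 were higher and none lower. The shares over all genes were 2.11% and 2.32%. Etv4, an ETS factor induced by this pathway, was higher by 1.14 ± 0.14 (adjusted p = 0.000102), at 268 ± 77.0 in growing KO and 115 ± 36.5 in growing WT cells. Nras, a GTPase of the pathway, was higher by 0.54 ± 0.10 (adjusted p = 0.00581), and both its other probe sets passed in the same direction. The ligand Fgf4 differed by 0.34 ± 0.14 on its brightest probe set (adjusted p = 0.187), and 1 of its 2 other probe sets was higher in KO (0.40, adjusted p = 0.0413). The adaptor Gab1 differed by −0.31 on its brightest probe set (adjusted p = 0.0650) and was lower on 1 of its 2 others (−0.29, adjusted p = 0.0307). The kinase Map2k2 was higher on the dimmer of its 2 probe sets (0.55, adjusted p = 0.0166), with 0.13 on the brighter (adjusted p = 0.611), and Map2k1 did not pass. Among 11 family relatives, cofactors and ligands of the 6 genes, 1 was lower (2.32% of all genes) and none higher (2.11%). This was Pdgfc, a ligand of the Pdgfra receptor, at −0.86 ± 0.15 (adjusted p = 0.00296), measured by a probe set whose suffix warns of cross-hybridisation. Its other probe set differed by −0.55 (adjusted p = 0.0798). The ligand Pdgfa differed by 0.03 ± 0.13 and Kit by 0.21 ± 0.13, and neither passed. At 2 h 0 of these 11 genes passed and 5 had an unadjusted p under 0.05, with a median difference of 0.26.

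Feeder fibroblasts also express Pdgfra, so markers of these cells were read beside it. Of 30 fibroblast genes tested, limma called 0 between genotypes for the mean of the states, with a median difference of −0.03. At an unadjusted p under 0.05 there were also 0, where 18.8% of all tested probe sets had such a value. These counts take the brightest probe set of each gene, and the dimmer of the 2 probe sets of Fn1, fibronectin, was lower in KO (−0.39, adjusted p = 0.0297). None of the 30 was at 0, and Col1a1 read 87.5 ± 97.2 in growing WT and 85.2 ± 55.7 in growing KO cells (SD, n = 3 each). The summed level of the list ranged from 2817 to 6680 in growing WT and from 3489 to 5082 in growing KO cells. At 2 h it ranged from 3160 to 6333 in WT and from 3525 to 4153 in KO, and at 24 h from 4954 to 5604 in WT and from 5027 to 5724 in KO. The genotypes thus overlapped in each state, and the highest sums at 2 h and in growing cells belonged to WT.

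**Figure D5:**
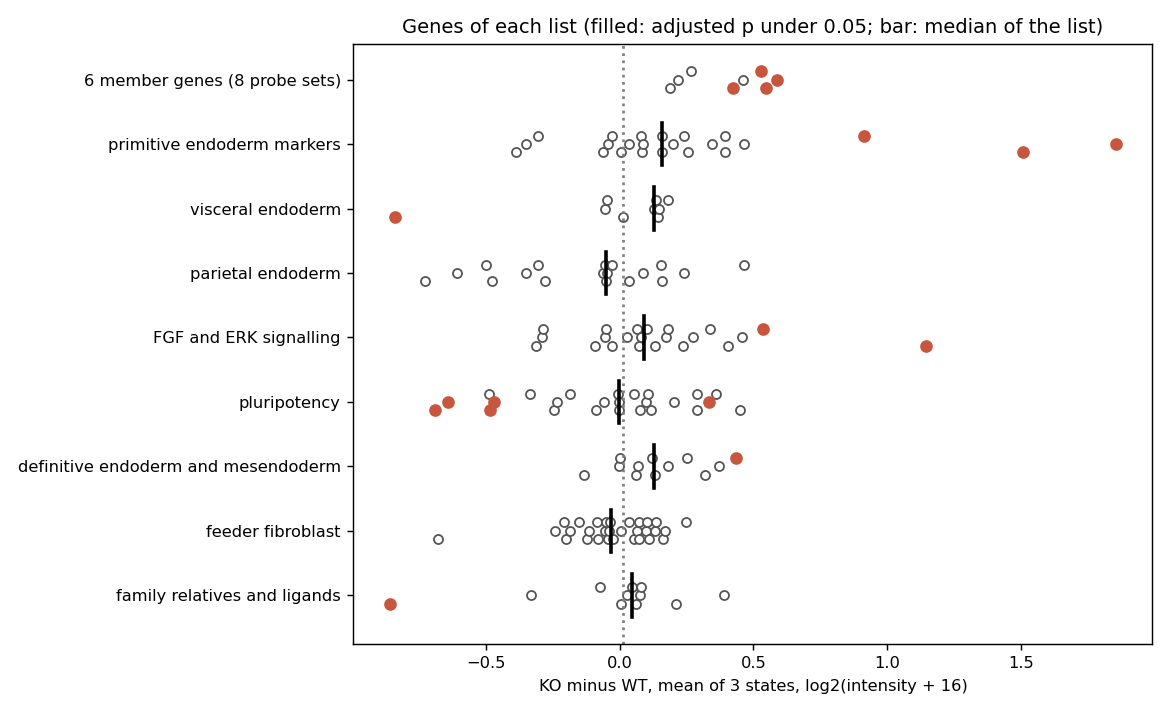
KO minus WT difference averaged over the 3 states, in log2(intensity + 16), for the 8 tested probe sets of the 6 genes (top row) and for the tested genes of 8 lists. Filled points have an adjusted p under 0.05, black bars are list medians and the dotted line is the median of all genes, 0.01. Dab2, Cubn and Srgn are the filled points of the primitive endoderm row.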

How the data were processed

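The authors deposited linear intensities, 1 for each probe set on each array. All arrays share 1 trimmed mean (2% cut at each end), the mark of scaling to a common constant. No source used here names the summarising software. Instrument files, per the file headers, hold no expression and served only to sort arrays into 4 runs on 2 days.

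Of 22690 probe sets, 64 controls were left out, and 20380 of the rest had 1 gene symbol, 691 several and 1555 none. Only probe sets with 1 symbol were named. The test used limma 3.58.1 (R 4.3.3) on log2(intensity + 16): 6 group means, eBayes with an intensity trend (10 residual and 8.55 prior degrees of freedom) and two-sided p-values. A probe set was tested where at least 1 group mean exceeded 4.80 (log2). A gene stands by its brightest tested probe set. The 10 comparisons set KO against WT in single states and averaged over 3 states, irradiated against growing cells, and 2 interactions.

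All probe sets of the 6 genes were named. In each list the genes past the threshold in any KO against WT comparison and the 3 brightest were named, as were the 5 most alike genes of each regulator. The members and lists were chosen with earlier results of these data known. Same-numbered arrays deviated together from their group means in WT at 2 h and growing cells (correlations 0.198, 0.231 and 0.292), where each pair also shared a hybridisation run, and by this check the numbers paired those arrays. The script was tested on simulated data. Alternatives changed the added constant, scaling, filter, blocks, weights and arrays. Signal of the inactivated gene is left unreported, and genotypes follow the labels. Pearson correlations between arrays (log2) were 0.953 to 0.987, and no arrays were identical. The number of arrays, 2 or 3 per group, limits precision.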

Additional observations from a re-analysis of the deposited data

How the results depend on the processing

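For KO against WT averaged over the 3 states, 4 probe sets of the 6 genes passed. The count was 2 with the filter at the 50th percentile, where fewer probe sets were tested, 1 without the second hybridisation day, and 2 with array weights. It ranged from 0 (without KO 24 h replicate 1) to 4 when 1 array was left out, and was 3 to 5 under the other settings. In KO cells at 24 h against growing cells, where none passed, 1 passed without the filter and 1 without the intensity trend. In the other 8 comparisons the count was 0 under every alternative run. Without the second day the adjusted p was 0.0488 for Gata6 1425464_at, 0.132 for Gata4 1418863_at and 0.0800 for Sox7, and the cause of these losses beyond the smaller number of arrays was not tested.

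Signs changed for 4 differences near 0. Sox17 in growing cells (−0.02) was 0.0011 with an added constant of 64, 0.093 after quantile normalization, 0.049 with median scaling, 0.13 with the run as a block and −0.24 to 0.11 with 1 array left out. Gata4 1418864_at in growing cells (−0.05) was 0.015 with the run as a block and −0.20 to 0.032 with 1 array left out. Foxa2 (0.11 in growing cells, 0.05 at 24 h) ranged from −0.10 to 0.25 and from −0.27 to 0.36 with 1 array left out, and was −0.0038 at 24 h after quantile normalization. Of 43 irradiation and interaction differences with an unadjusted p of 0.1 or more, 25 changed sign in at least 1 alternative and 0 were called in any. The cause was not tested.

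The replicate numbers paired the samples for WT at 2 h against growing cells, where the replicate block gave 36 calls (26 without it). In the other 3 comparisons of 3 pairs at least 1 correlation was under 0.1 (lowest −0.092, 0.097 and −0.061), and 4, 6 and 4 of 6 arrays correlated best with their own number (KO against WT in growing cells and at 2 h, and KO at 2 h against growing cells). The numbers were not taken as pairs there, although replicate 3 of 4 groups shared run 4. With the replicate block the count for the mean of the states was 5 (adding Pdgfra, adjusted p = 0.0332), and no other call on the 6 genes changed. Over all probe sets the block gave 124 calls in growing cells (44 without it), 198 at 2 h (70) and 35 at 24 h (11). Over all alternatives these counts ran from 6 to 144, from 4 to 229 and from 3 to 35, and the count of 733 for the mean of the states from 243 to 1073. Against growing cells the counts ran from 15 to 39 in WT at 2 h (26), 276 to 1911 in WT at 24 h (1527), 11 to 45 in KO at 2 h (19) and 225 to 2037 in KO at 24 h (1423), and from 0 to 1 for both interactions (0).

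Median scaling moved the median of all probe sets from −0.04 to 0.06 in growing cells, from 0.05 to −0.08 at 2 h and from 0.11 to −0.11 in KO cells at 24 h. The counts that rest on Mixl1, Lefty1 or Stat3 fell to 0 under several alternatives, and the 4 lower pluripotency genes became 2 to 6, while the count of higher primitive endoderm markers stayed at 3 or 4. Group means of the 6 genes lay between 0.907 and 40.4, against array medians of 26.7 to 37.3, so dim signal limits them all.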
